A study of Mus musculus with 6 samples.

Results

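The imprinted Dlk1-Meg3 cluster was followed through 6 of its genes, Dlk1, Meg3, Rtl1, Rian, Mirg and Dio3, in RNA-Seq libraries of mouse embryonic stem cells (mESCs). The 6 genes were taken by Ensembl identifier from a table of 43309 genes, of which 16823 passed a filter of 10 counts or more in any library. They were chosen with the difference between the groups already known, so their values are given as a description and no test is attached to them. The libraries came from J1 (129SV) mESC lines grown in serum on gelatin without feeder cells. The control group held 3 libraries of lines with the genotype 2lox/+, in which a Zbtb24 allele flanked by loxP sites stands beside a wild-type allele. The other group held 3 libraries labelled Zbtb24 knockout, genotype 1lox/1lox, in which both alleles are those left after recombination. The lines of each group are described as independently derived clones, with 1 library for each line. Within groups, the median ratio of the variation between 2 libraries to that of sampling alone was lowest, at 1.12, for control replicates 2 and 3. It was highest, at 1.597, for labelled knockout replicates 1 and 3. The SD, SE and adjusted p values below rest on this small spread. Whether it is the spread between independent lines was not tested.

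Genomic imprinting is the expression of a gene from the copy inherited from a single parent. In this cluster the protein-coding genes Dlk1, Rtl1 and Dio3 are expressed from the paternal chromosome, and the non-coding RNAs Meg3, Rian and Mirg, together with the small RNAs cut from them, from the maternal chromosome. A control region between Dlk1 and Meg3 carries DNA methylation on the paternal copy. Loss of Meg3, Rian and Mirg RNA is known from some cultured pluripotent lines, where it goes with methylation of both copies of that region. The counts hold no information on the parent of origin and DNA methylation was not measured in these libraries, so the values below are the sum over both chromosomes.

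Library totals ran from 26987179 to 27754105 counts in the control group and from 25042261 to 28838924 in the libraries labelled knockout. Zbtb24 itself went against the label. It had 510, 512 and 489 counts in controls and 888, 925 and 1039 in lines labelled knockout, a rise of 0.99 on the log2 scale (SE 0.05; edgeR adjusted p = 4.32e-23). A count over the whole gene does not show whether these RNAs carry the recombined allele, and every direction below is therefore that of the libraries labelled knockout. Of all genes tested, 69.5% were called at a false discovery rate (FDR) of 0.05, 35.2% lower and 34.4% higher in the libraries labelled knockout, so a difference between these groups was the usual state of a gene.

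The cluster ran over 828.275 kb of distal chromosome 12 (GRCm38), from Dlk1 to Dio3. All members lie on the plus strand except Rtl1, which is read from the minus strand between Meg3 and Rian. The promoters of Meg3, which stands next to the control region, and of Dlk1 and Dio3, the outermost members, are shown because the results below set the maternal RNAs against the paternal genes at the ends. RefSeq (GRCm38.p6) gave a promoter, 250 bases before to 50 bases after the start, for 5 of the 6 members. Capitals mark matches to 3 motifs searched on both strands. The motif TGCCGC holds the letters read by ZFP57, a zinc finger protein that keeps methylation at imprinted regions. The motif TGACGTCA is the cyclic AMP response element. The motif TATAAA is the box near the start of many regulated promoters. The windows were chr12:109540746-109541045 for Meg3, chr12:109452573-109452872 for Dlk1 and chr12:110278980-110279279 for Dio3, all on the plus strand.
Meg3: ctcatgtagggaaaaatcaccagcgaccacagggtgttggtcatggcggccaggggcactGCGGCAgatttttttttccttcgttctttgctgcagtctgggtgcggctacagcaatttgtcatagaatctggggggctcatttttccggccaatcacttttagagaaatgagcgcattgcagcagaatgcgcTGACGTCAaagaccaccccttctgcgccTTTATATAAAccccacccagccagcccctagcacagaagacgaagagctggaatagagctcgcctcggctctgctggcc
Dlk1: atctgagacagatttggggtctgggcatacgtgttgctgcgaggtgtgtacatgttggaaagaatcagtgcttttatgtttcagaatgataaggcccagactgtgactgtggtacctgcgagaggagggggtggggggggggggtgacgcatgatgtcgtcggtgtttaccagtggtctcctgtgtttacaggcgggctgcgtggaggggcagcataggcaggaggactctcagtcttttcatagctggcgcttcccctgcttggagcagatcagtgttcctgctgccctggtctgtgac
Dio3: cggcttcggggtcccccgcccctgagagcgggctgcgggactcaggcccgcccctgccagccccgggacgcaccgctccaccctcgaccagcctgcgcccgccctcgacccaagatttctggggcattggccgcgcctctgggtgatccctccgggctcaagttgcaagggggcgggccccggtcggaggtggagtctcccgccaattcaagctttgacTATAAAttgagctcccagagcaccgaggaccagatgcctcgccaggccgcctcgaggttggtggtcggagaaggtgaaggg

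The Meg3 window held TGCCGC on the minus strand from -190 to -185 relative to the start, TGACGTCA from -57 to -50, and TATAAA on both strands, from -29 to -24 and from -25 to -20, which overlap each other. The Dio3 window held TATAAA from -31 to -26, and the Dlk1 window held none of the 3. Among 32851 RefSeq promoters of the same length, 11.6% held TGCCGC, 1.79% held TGACGTCA and 13.6% held TATAAA. The number of CpG dinucleotides, the sites of DNA methylation, was 13 for Meg3, 9 for Dlk1 and 25 for Dio3, where the median promoter had 7. A second RefSeq start of Meg3 had 1 CpG, Mirg had 10 and Rian had 0. These letters describe the windows and show no binding.

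Rtl1 and the maternal transcripts overlap on opposite strands, and microRNAs cut from the maternal strand pair with Rtl1 RNA. RefSeq listed 114 mature microRNAs of 61 genes between Dlk1 and Dio3, with 104 distinct seeds, the bases 2 to 8 that guide target choice. Of these, 11 microRNAs of 6 genes were exactly reverse-complementary to the 6358 bp Rtl1 transcript, and 1 of each gene is shown with its seed in capitals, since these sequences tie the maternal and the paternal RNAs together.
miR-431-5p: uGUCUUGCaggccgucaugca
miR-433-3p: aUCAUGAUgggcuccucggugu
miR-127-3p: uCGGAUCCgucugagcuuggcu
miR-434-3p: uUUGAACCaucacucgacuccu
miR-432: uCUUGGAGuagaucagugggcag
miR-136-5p: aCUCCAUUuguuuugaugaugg

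They lie in that order on the plus strand, from chr12:109590459-109590479 for miR-431-5p to chr12:109595331-109595352 for miR-136-5p, inside the Rtl1 gene. The 6 seeds differ from each other. Shared seeds were found elsewhere in the cluster, and 9 seeds were carried by more than 1 microRNA, such as AUGUAAC of miR-379-3p and miR-411-3p. Poly(A) libraries of fragmented RNA hold fragments of precursors and not the mature microRNAs, so these sequences are context for the counts of their precursors given below.

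Meg3, Rian and Mirg, the maternally expressed non-coding RNAs, were all lower in the libraries labelled knockout, by 5.44-fold to 6.95-fold. Dio3 was 5.41-fold lower and Dlk1 2.16-fold lower, and Rtl1 was near the limit of what could be counted. All 6 members were lower and none had overlapping groups, beside 35.2% of all genes called lower and 36.2% with lower, non-overlapping groups. The members were picked from this contrast, so nothing is read from that count. A lower count in a bulk library can come from fewer cells of a type or from less RNA per cell, and these cannot be told apart.

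Meg3 (ENSMUSG00000021268, chr12:109541001-109571726, long intergenic non-coding RNA), a growth-restraining RNA found in the nucleus, had 7546, 7499 and 7649 counts in controls and 1174, 1089 and 1210 in lines labelled knockout. The 3 control libraries lay close together and far above the others. Its level was 273 ± 5.23 cpm (counts per library size, scaled by the trimmed mean of M-values and called TMM cpm here; SD, n = 3) against 44.0 ± 1.06, a log2 fold change of -2.63 (SE 0.03).

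Rian (ENSMUSG00000097451, chr12:109603940-109661716, processed transcript), from whose introns C/D box small nucleolar RNAs (snoRNAs) are cut, had 10428, 10406 and 10728 counts in controls and 1784, 1706 and 2029 in lines labelled knockout. As for Meg3, the control libraries were all above the others. The TMM cpm were 380.0 ± 10.1 and 69.8 ± 1.84, and the log2 fold change was -2.44 (SE 0.03).

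Mirg (ENSMUSG00000097391, chr12:109729764-109749460, long intergenic non-coding RNA), host of a large array of microRNAs, had 588, 640 and 595 counts in controls and 78, 82 and 89 in lines labelled knockout. The groups did not overlap. With 21.95 ± 1.22 against 3.16 ± 0.172 TMM cpm, its log2 fold change of -2.80 (SE 0.08) was the lowest fitted value of the members with over 10 counts in every control library.

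Dlk1 (ENSMUSG00000040856, chr12:109452823-109463336, protein-coding), a membrane protein with epidermal growth factor repeats that inhibits fat cell formation, had 219, 209 and 211 counts in controls and 101, 80 and 101 in lines labelled knockout. The lowest control library stood 1.97-fold above the highest library labelled knockout in TMM cpm. The means were 7.69 ± 0.0885 and 3.56 ± 0.309 TMM cpm, a log2 fold change of -1.11 (SE 0.10). Among all genes tested, 10.9% had a lower log2 fold change than Dlk1, against 2.80% for Meg3, 3.28% for Rian, 2.43% for Mirg and 3.36% for Dio3.

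Dio3 (ENSMUSG00000075707, chr12:110279068-110281097, protein-coding), the deiodinase that inactivates thyroid hormone, had 51, 69 and 67 counts in controls and 12, 9 and 12 in lines labelled knockout. Its groups were apart at these low counts. The TMM cpm were 2.25 ± 0.385 and 0.417 ± 0.0475, and the log2 fold change was -2.42 (SE 0.23), so its interval is wider than that of the non-coding RNAs.

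Rtl1 (ENSMUSG00000085925, chr12:109589193-109600330, minus strand, protein-coding), a gene derived from a retrotransposon and needed in the placenta, had 12, 7 and 9 counts in controls and 2, 2 and 3 in lines labelled knockout. It passed the count filter through a single control library, so a lower value in the other group was built in, and nothing is read from its direction. Its summed counts of 28 and 7, scaled by the TMM library sizes, gave a ratio of 3.80. The 95% exact interval of 1.62 to 10.3 covers counting error only and not this selection. All libraries labelled knockout were at or under the floor of 3 counts. Whether Rtl1 followed Dlk1 or the non-coding RNAs in size was not detectable at this depth.

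**Figure D1:**
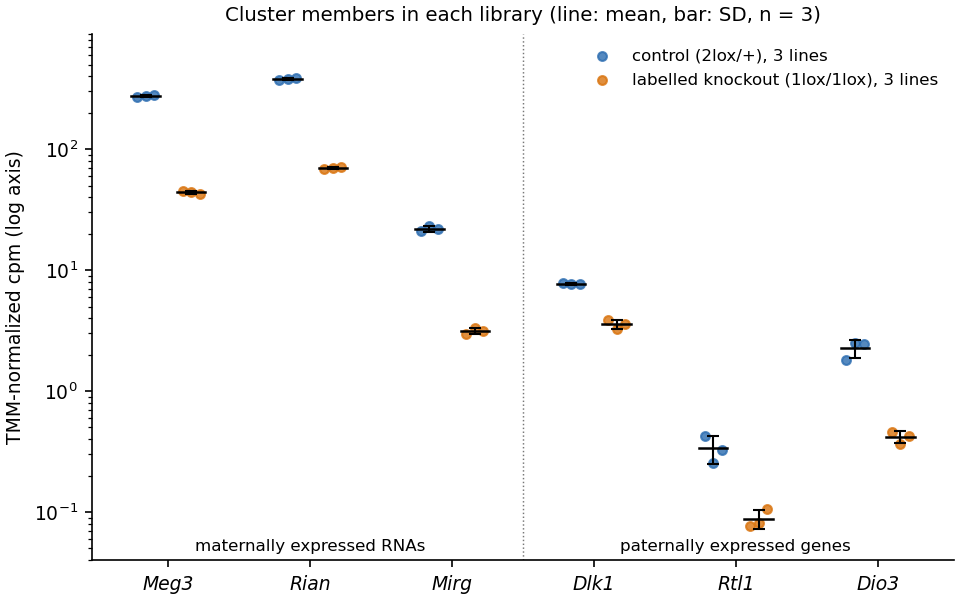
TMM cpm of the 6 members on a log axis, with a point for each library, a line for the mean and a bar for the SD of each group of 3. Meg3 stands at 273 against 44.0 and Rian at 380.0 against 69.8, while Dlk1 shows the smallest gap of the fitted members, 7.69 against 3.56.

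Levels of different members can be set side by side only per length. In FPKM, here the TMM cpm divided by the length of the longest transcript in kb, the control order was Rian at 47.0 ± 1.25, Meg3 at 18.8 ± 0.359, Mirg at 5.74 ± 0.320, Dlk1 at 1.65 ± 0.019, Dio3 at 1.11 ± 0.189 and Rtl1 at 0.0529 on average. In the libraries labelled knockout it was Rian at 8.63 ± 0.227, Meg3 at 3.03 ± 0.0731, Mirg at 0.826 ± 0.045 and Dlk1 at 0.766 ± 0.0664, and the last 2 differed by less than their spread. Dio3 stood at 0.205 ± 0.0234 and Rtl1 at 0.0138. With merged exon lengths Mirg was at 0.433 and Dlk1 at 0.630 FPKM in the libraries labelled knockout, so the order of this pair depends on the length used, and the lead of Rian over Meg3 in the controls shrank to 20.8 against 15.1.

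Meg3, Rian and Mirg together took 0.0686% ± 0.00171 of all counts in controls and 0.0115% ± 0.000035 in lines labelled knockout. Within this sum the parts differed little. Meg3 made up 40.5% ± 0.17 in controls and 37.6% ± 1.17 in lines labelled knockout, Rian 56.3% ± 0.234 and 59.7% ± 1.15, and Mirg 3.25% ± 0.173 and 2.70% ± 0.142. The count ratio of Rian to Meg3 was 1.38, 1.39 and 1.40 in controls and 1.52, 1.57 and 1.68 in lines labelled knockout, without overlap, so the difference was slightly larger for Meg3. Set against Dlk1 the proportion differed more, from 35.5 ± 0.947 Meg3 counts per Dlk1 count in controls to 12.4 ± 1.06. Set against Dio3 the groups overlapped, with 148, 109 and 114 Meg3 counts per Dio3 count in controls and 97.8, 121 and 101 in lines labelled knockout. The proportion of 2 paternally expressed genes differed too, from 3.49 ± 0.698 Dlk1 counts per Dio3 count to 8.57 ± 0.273.

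The stretch from Dlk1 to Dio3 held 96 rows of the table, 90 of them not members, mostly precursors of small RNAs. These rows were also lower in the libraries labelled knockout when summed, with 116, 105 and 93 counts in controls and 28, 15 and 24 in the others. The ratio of the sums, scaled by the TMM library sizes, was 4.45 (95% exact interval 3.41 to 5.89, counting error only). Of the 32 rows with any count, 29 had more counts in controls and 3 in lines labelled knockout. Several of these, such as Mir673 and Mir337, held 1 count in all, and the share over all genes was not computed, so nothing is read from that number. Most of the counts lay on the 3 rows that passed the filter. The 87 rows under the filter had 133 and 25 counts, a ratio of 5.06 (3.28 to 8.09).

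The 59 microRNA rows had 30, 23 and 21 counts in controls and 5, 5 and 4 in lines labelled knockout, a ratio of 5.02 (2.81 to 9.64), and 38 of them had no count in any library. The 23 snoRNA rows had 34, 38 and 32 against 11, 3 and 10 counts, a ratio of 4.12 (2.62 to 6.72). The 8 other rows had 52, 44 and 40 against 12, 7 and 10 counts, a ratio of 4.46 (2.97 to 6.91). Most of the snoRNA counts lay on Gm24564 and DQ267102, and most of the other counts on Gm26945, so these 2 ratios are mainly those of single rows. The 3 intervals overlap, and each holds the 5.44-fold difference of Rian.

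Nearly all of these counts lay on the plus strand, that of Meg3, Rian and Mirg. The 83 rows on the plus strand had 311 counts in controls and 67 in lines labelled knockout, and the 7 on the minus strand had 3 and 0. Those 3 counts all fell on Gm26906, an RNA opposite the end of Meg3, which was named after its values were seen. Of the microRNA genes shown with Rtl1, Mir433 had 7 counts in the 3 control libraries and 1 in the others, Mir127 had 4 and 0, Mir431 had 1 and 0, Mir434 had 1 and 2, and Mir432 had 0 in all. Mir136 had no row of its own, so no count can be given for it. No order among these precursors can be read from such counts.

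Only 3 rows besides the members had 10 counts or more in any library. Gm26945, a predicted gene, had 40, 30 and 31 counts in controls and 8, 5 and 7 in lines labelled knockout, a log2 fold change of -2.24 (SE 0.31). The snoRNA rows Gm24564, with 21, 12 and 14 against 6, 0 and 6 counts, and DQ267102, with 11, 13 and 9 against 5, 2 and 3 counts, had log2 fold changes of -1.87 (SE 0.48) and -1.61 (SE 0.51). All 3 rows passed the filter through control libraries alone, so lower values in the other group were built in, and nothing is read from them.

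**Figure D2:**
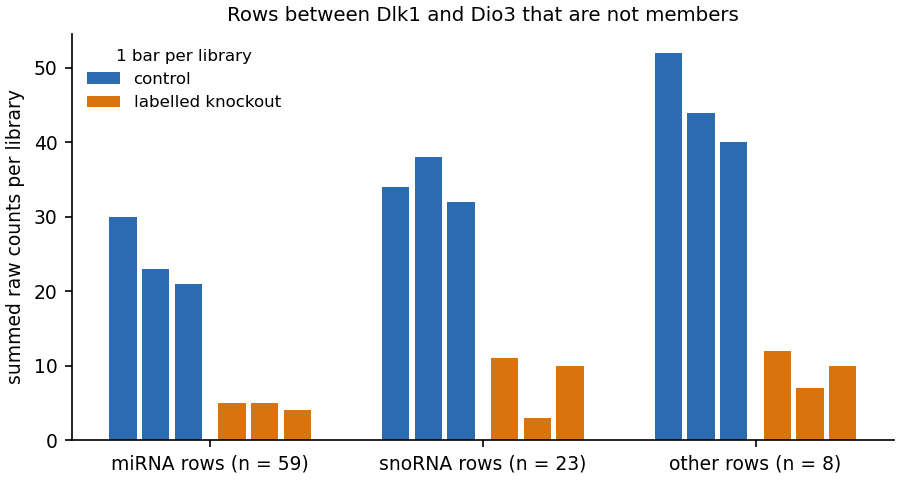
Summed counts of the microRNA, snoRNA and other rows between Dlk1 and Dio3 that are not members, with 1 bar for each library and the vertical axis in raw counts from 0. In every class the 3 control bars stand above the 3 bars of the libraries labelled knockout.

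Genes beside the cluster did not share its size of change. Within 1 Mb on either side, 21 genes were tested, of which 3 fell, 10 rose and 8 were not called (61.9% called, beside 69.5% of all genes), with a median log2 fold change of 0.17 and a range of -0.78 to 0.52. On the upstream side, beyond Dlk1, 1 of 8 fell and 3 rose. On the downstream side, beyond Dio3, 2 of 13 fell and 7 rose.

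Begain, the nearest tested protein-coding gene upstream at 385 kb from Dlk1 and imprinted in some mammals, had 31, 34 and 24 counts in controls and 19, 24 and 17 in lines labelled knockout. The groups touched at 24 counts, and its log2 fold change of -0.49 (SE 0.25) was not called (edgeR adjusted p = 0.0733). It was called without control replicate 3 (-0.62) and without labelled knockout replicate 2 (-0.69), and without scaling beyond library size (-0.54). Wdr25 and the tryptophanyl-tRNA synthetase gene Wars, which follow, rose by 0.34 (SE 0.08) and 0.17 (SE 0.03) on the log2 scale (edgeR adjusted p = 0.000444 and 7.23e-07). Downstream, the phosphatase subunit gene Ppp2r5c, 166 kb from Dio3, rose by 0.17 (SE 0.03; edgeR adjusted p = 2.11e-06). The dynein heavy chain gene Dync1h1 and the chaperone gene Hsp90aa1 fell by 0.24 and 0.11 (edgeR adjusted p = 3.05e-11 and 2.57e-06).

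The largest change among the neighbours was that of Evl, an actin regulator 764 kb from Dlk1, which fell by 0.78 (SE 0.05; edgeR adjusted p = 3.31e-19), a smaller value than that of any fitted member. Cinp and Mok, on the other side, rose by 0.34 and 0.28 (edgeR adjusted p = 1.6e-11 and 0.000104). Chromosome 12 as a whole was centred near zero. The median log2 fold change was 0.013 over its 536 genes averaging 10 or more counts, -0.0052 over the 129 such genes from 100 Mb on that are not cluster rows, and 0.0097 over 14840 autosomal genes.

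**Figure D3:**
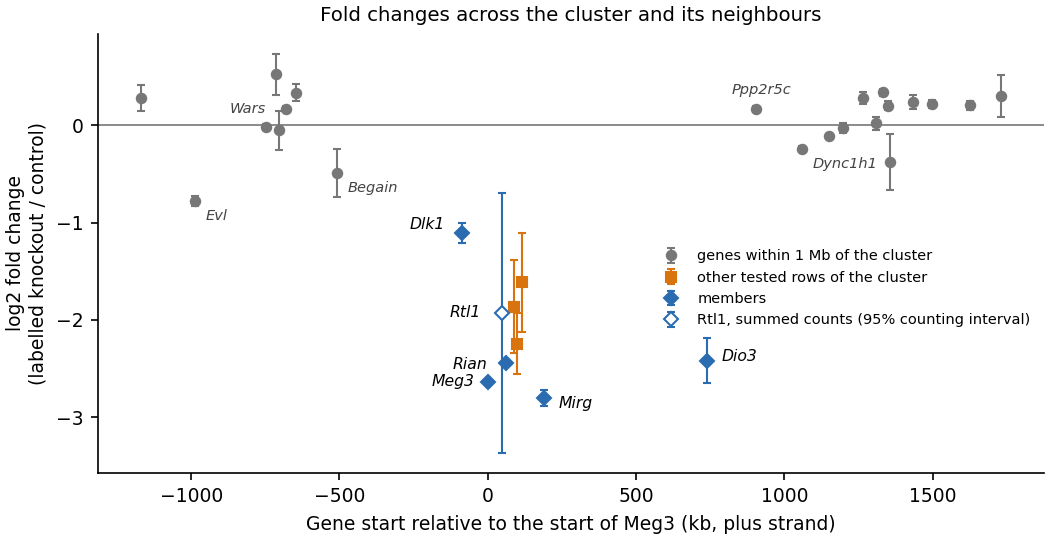
Log2 fold change, labelled knockout minus control, against the distance in kb from the start of Meg3 for the members, the other tested cluster rows and the tested neighbours within 1 Mb. Bars are the SE. Rtl1, which passed the filter through a single control library, is drawn hollow as the ratio of summed counts with its 95% interval for counting error only. The fitted members lie between -2.80 and -1.11 and the neighbours between -0.78 and 0.52.

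Imprints of this cluster are kept by the zinc finger proteins ZFP57 and ZFP445, which bring in TRIM28 and histone methylation, and by DNMT1 with its partner UHRF1, which copy DNA methylation after replication. Of 20 regulators of imprints and DNA methylation listed for this purpose, 7 fell, 7 rose and 6 were not called (70% called, beside 69.5% of all genes), with a median log2 fold change of 0.0071, beside -0.00036 for all genes. Zfp57 rose from 331 to 493 TMM cpm, by 0.58 on the log2 scale (SE 0.02; edgeR adjusted p = 9.92e-27), higher in 3 of 3 libraries labelled knockout. Trim28, Dnmt1 and Uhrf1 had log2 fold changes of 0.01, 0.04 and -0.05 and were not called (edgeR adjusted p = 0.82, 0.094 and 0.0788). Zfp445 and the histone methyltransferase gene Setdb1, named after their values were seen, had 0.13 and -0.14 and were called (edgeR adjusted p = 0.00276 and 8e-06). Dnmt1 was called without control replicate 1 (0.054) and Uhrf1 without labelled knockout replicate 3 (-0.065), with upper-quartile scaling (-0.054) and without scaling beyond library size (-0.095).

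The largest fall of the list was that of Dnmt3b, an enzyme that sets new DNA methylation, which had 12507, 11504 and 11797 counts in controls and 2590, 2575 and 2923 in lines labelled knockout (log2 fold change -2.07, SE 0.03; edgeR adjusted p = 6.72e-47). Its partners fell less, Dnmt3l by 0.94 and Dnmt3a by 0.33 on the log2 scale (edgeR adjusted p = 6.97e-33 and 1.28e-15). Tet2, which oxidizes methylated cytosine and was the list member with the largest rise, rose by 1.23 (SE 0.03; edgeR adjusted p = 3.21e-37). Dppa3, which protects imprints in the early embryo, fell by 0.11 (edgeR adjusted p = 0.0118; not called by DESeq2), and Aff3, known to bind at this cluster, rose by 0.29 (edgeR adjusted p = 0.00185). The part of any of these genes in the member values was not tested.

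Genes of the pathways in which the cluster's proteins act were also described. DLK1 lacks the domain of the classical Notch ligands and is known to damp Notch signalling. Of 19 Notch pathway genes tested, 11 fell, 3 rose and 5 were not called (73.7% called, beside 69.5% of all genes), with a median log2 fold change of -0.60. Dll4 and Dlk2, counted among the falls, passed the filter through the controls alone, so their direction was built in. The fringe glycosyltransferase gene Lfng fell by 2.30, the ligand gene Jag2 by 1.01 and the receptor genes Notch3 and Notch1 by 0.97 and 0.90 on the log2 scale (edgeR adjusted p = 1.19e-24, 1.42e-24, 2.94e-28 and 3.95e-23). Among the rises, named after their values were seen, were the target gene Hes1 by 0.88 and the receptor gene Notch4 by 0.84 (edgeR adjusted p = 2.08e-17 and 1.83e-20). Dlk2, the close relative of Dlk1 on another chromosome, named after its values were seen, had 29, 26 and 27 counts in controls and 2, 6 and 3 in the others. It passed the filter through the controls alone, and no test is attached to it.

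Of 12 thyroid hormone genes tested, 8 fell, 1 rose and 3 were not called (75% called, beside 69.5% of all genes), with a median of -0.50. Thrb, counted among the falls, passed the filter through a single control library, so its direction was built in. Crym, which encodes a thyroid hormone-binding protein, fell by 1.28, the corepressor gene Hr by 1.08, the transporter gene Slc16a10 by 0.91 and the receptor partner gene Rxra by 0.51 (edgeR adjusted p = 7.24e-16, 6.74e-21, 4.31e-09 and 5.83e-11). Dio1 and Dio2, the other 2 deiodinase genes, were not tested because they had at most 3 counts in every library, so Dio3 was the only deiodinase gene that passed the filter.

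Rtl1 belongs to a set of genes derived from retrotransposon Gag sequences. Of 7 others tested, 3 fell and 4 were not called (42.9% called, beside 69.5% of all genes), with a median of -0.25. Peg10, a paternally expressed placental gene, fell by 1.92 from 843 to 223 TMM cpm, and Rtl6 by 0.25 (edgeR adjusted p = 4.27e-48 and 0.0185; Rtl6 was not called by DESeq2, nor without control replicate 2 at -0.22 or labelled knockout replicate 1 or 3 at -0.20). Of 29 imprinted transcripts of other clusters, 22 fell, 5 rose and 2 were not called (93.1% called, beside 69.5% of all genes called and 35.2% called lower), with a median of -0.49. Airn, counted among the falls, passed the filter through the controls alone, so its direction was built in. The growth factor gene Igf2, its neighbour H19 and the cell cycle inhibitor gene Cdkn1c fell, with log2 fold changes of -4.83, -3.59 and -1.94 (edgeR adjusted p = 8.78e-42, 1.23e-50 and 4.72e-28). H19 and Cdkn1c are maternally expressed and Igf2 and Peg10 paternally expressed, so the named falls were of both parental kinds. The difference between any of these lists and all genes was not tested.

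**Figure D4:**
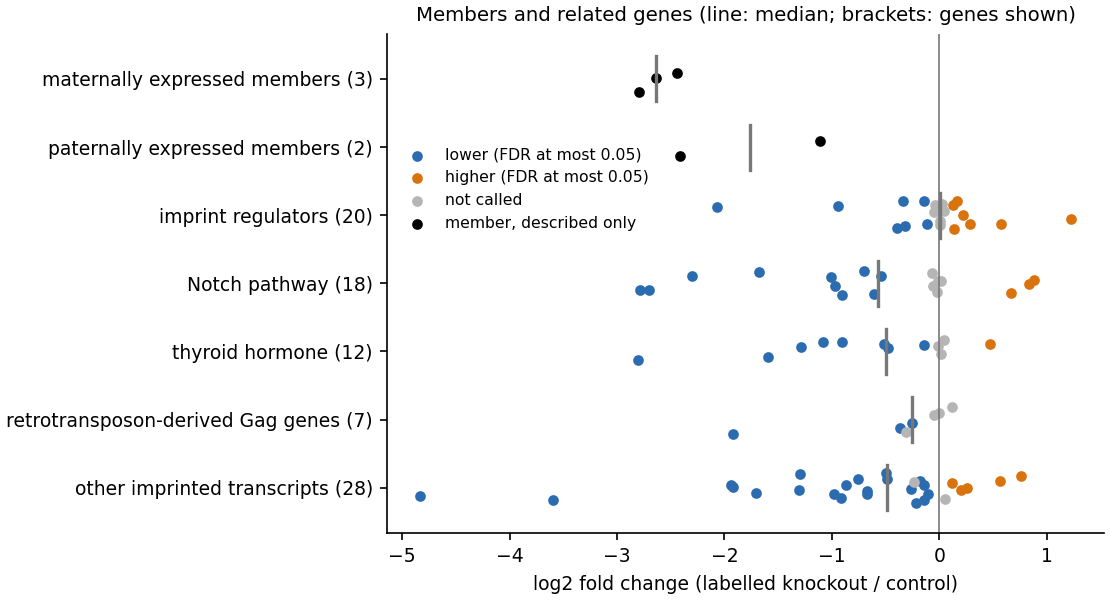
Log2 fold change, labelled knockout minus control, of members and of genes tested in the lists, with a point for each gene, a grey line for the median of the genes shown and their number in brackets. Members are drawn in black as described only. Genes at 3 counts or fewer in every library of a group, which are Rtl1, Dll4 and Airn among those tested, are left out. The regulators are spread about zero, from -2.07 to 1.23, while the members drawn lie at -1.11 and below.

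Markers of pluripotent stem cells were high in every library. Their sum was 5107 to 5218 TMM cpm in the control group and 6792 to 6835 in the libraries labelled knockout. Of the 10, 9 rose and 1 fell (100% called). Among all genes, 69.5% were called, 34.4% higher and 35.2% lower. Markers of other cell types differed as well. The sum of 12 fibroblast markers went from between 61.7 and 64.1 to between 14.3 and 14.7 TMM cpm. Of the 10 tested, 7 fell, 1 rose and 2 were not called (80% called, beside 69.5% of all genes). Of these, Col3a1, Dcn, Twist2 and Postn passed the filter through the controls alone and Col6a3 through the other group alone. The directions of these genes were built in, and nothing is read from them. Col1a1 held most of the control sum, at 41.1 and 3.93 TMM cpm. Col1a2 stood at 7.33 and 0.818 TMM cpm and Thy1 at 8.28 and 4.89, while Pdgfra and Pdgfrb were not called. Lum had no count in any library and Dcn stood at 0.266 and 0.0253 TMM cpm.

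The sum of 10 neural progenitor markers went from between 121 and 125 to between 45.3 and 48.2 TMM cpm, with Nes at 95.1 and 18.95. Of the 6 tested, 2 fell, 2 rose and 2 were not called (66.7% called, beside 69.5% of all genes). The rises were those of Msi1 (log2 fold change 0.15) and, named after its values were seen, Sox1 (1.23). The 8 muscle markers went from between 35.5 and 38.3 to between 18.2 and 18.6 TMM cpm, with Acta1 at 22.6 and 0.407. Of the 3 tested, 2 fell and 1 rose (100% called). The rise was that of Des, from 11.4 to 17.3 TMM cpm, which made up most of the later sum. The 10 endoderm markers lay between 14.2 and 15.7 in the control group and between 14.6 and 16.7 in the other. Of the 7 tested, 3 fell and 2 rose (71.4% called, near the share of all genes). Sox17 and Foxa2, counted among these falls, passed the filter through the controls alone, so their direction was built in. The 10 trophoblast markers summed to between 81.0 and 82.0 and between 84.3 and 87.5 TMM cpm, a level carried by Tfap2c at 53.3 and 70.6. Of the 8 tested, 5 fell and 2 rose (87.5% called), with a median log2 fold change of -0.78 and Hand1 at -3.15. Meg3, Rian, Dlk1 and Dio3 are known from differentiating and mesenchymal cells, and the part of the fibroblast, neural, muscle, endoderm and trophoblast markers in the member values was not tested.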

How the data were processed

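RNA was measured in 6 TruSeq Stranded mRNA libraries (2 µg RNA, 8 PCR cycles). The authors removed rRNA reads, mapped the rest to mm10 with TopHat2 2.0.10 and counted sense fragments of GENCODE Release M4 genes with HTSeq 0.6.1, discarding ambiguous and multiply mapped fragments, and deposited raw counts per gene. Symbols and coordinates came from GENCODE M21 on the same build (42425 of 43309 genes matched), sequences from RefSeq.

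Genes reaching 10 counts in 1 library or more were tested in R 4.3.3 with edgeR 4.0.16 (TMM, glmQLFit and glmQLFTest, no covariate, Benjamini-Hochberg FDR 0.05); the SE was the log2 fold change divided by the square root of F. The code was checked on simulated data. The members and lists were chosen with earlier results of these data known. Named genes were the members, Zbtb24, cluster rows with 10 counts, the nearest 3 and the 4 most changed neighbours, 9 regulators and the 4 most changed genes of each other list with a mean of at least 100 counts, and the 5 genes most like Meg3 and Dlk1; others were chosen after their values were seen. Alternatives were DESeq2 1.42.0, edgeR's exact test, other scalings, filters and call rules, other windows, exon lengths and pseudocounts, a replicate block, and leaving out each library. Without molecular identifiers, intervals cover counting error only.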

Additional observations from a re-analysis of the deposited data

How the results depend on the processing

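The member values kept their direction in all 70 alternatives computed for Dlk1, Meg3, Rian, Mirg and Dio3. Without scaling beyond library size, Meg3 was at -2.68 and Rian at -2.49 on the log2 scale, a move larger than the spread between libraries. Leaving out each library in turn gave -1.17 to -1.05 for Dlk1, -2.65 to -2.61 for Meg3, -2.46 to -2.42 for Rian, -2.83 to -2.75 for Mirg and -2.56 to -2.33 for Dio3. The number of genes called ran from 11059 to 11304, of neighbours from 12 to 13, of imprint regulators from 14 to 16, of Notch genes from 13 to 14, of thyroid hormone genes from 8 to 9, of Gag genes from 2 to 3 and of other imprinted transcripts from 26 to 27, and the median of chromosome 12 from 0.013 to 0.035. With a further minimum of 1 for the absolute log2 fold change, 2865 genes (1988 lower, 877 higher), 0 neighbours, 2 regulators, 6 Notch, 4 thyroid hormone, 1 Gag and 8 other imprinted genes were left, fewer by construction. A window of 500 kb gave 4 called of 6 tested neighbours (2 lower, 2 higher). A window of 2 Mb gave 32 called of 46 (13 lower, 19 higher), beside 69.5% of all genes. DESeq2 called 10326 genes and 1 of the Gag genes; the cause of the latter was not tested. Over genes averaging 100 counts or more, the median of chromosome 12 was 0.045. Of 462 alternatives for 33 named genes outside the cluster, 450 kept the call, Begain, Dnmt1 and Uhrf1 passed the threshold in 7 and Dppa3 and Rtl6 lost it in 5.

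Same-numbered libraries deviated together with r of 0.0062, 0.072 and 0.015 over 11115 genes, and other-numbered ones with r from -0.072 to 0.054. Such values cannot show whether libraries of a number share a batch or a pairing. With the replicate number as a block, 11801 genes were called, and Meg3 was at -2.63.

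Depth limits Rtl1, the small RNA rows and Dio3. The 3 libraries a group are described as single clones, the kit selects poly(A) RNA, and fragments shared by overlapping genes were discarded.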

Other observations

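Among 11114 genes averaging 100 counts or more, likeness to a member was taken as the largest difference, over the 6 libraries, between the centred log2(TMM cpm + 1) of a gene and that of the member. The genes most like Meg3 were Igfbp3, which encodes a binding protein of insulin-like growth factors, at 0.032, the muscle chaperone gene Unc45b at 0.043, Gm16344 at 0.060, Bnipl at 0.096 and the tight junction gene Cldn6 at 0.11. Mirg stood at place 7 (0.12), Rian at place 14 (0.17) and Dlk1 at place 570 (0.90).

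The genes most like Dlk1 were the collagen receptor gene Ddr1 at 0.055, Arhgef26 at 0.059, the tetraspanin gene Cd151 at 0.060, Sestd1 at 0.062 and Cgref1 at 0.063. With a pseudocount of 0.1 in place of 1, 2 of the nearest 5 genes stayed for Meg3, Igfbp3 and Cldn6, and 2 for Dlk1, Arhgef26 and Cgref1, and Mirg and Rian stood at places 17 and 18 from Meg3. The fitted log2 fold change of Unc45b was -3.68, beside -2.63 for Meg3. With 6 libraries in 2 groups, such likeness is mostly likeness in the difference between the groups and is given as a description.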
